A study of Sus scrofa with 11 samples.

Results

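Around APOA4 on pig chromosome 9 lie BUD13, ZPR1, APOA5, APOA4, APOC3 and APOA1, and these neighbours were followed together with CREB3L3, the gene of a regulator of apolipoprotein genes, across all 11 libraries. They were chosen by name, as the neighbours and the regulator of APOA4, because BUD13, ZPR1 and APOA4 had fallen together in irradiated against control liver. Of the 7 genes, 6 were paired with an ID among the 12505 genes of the deposited table and all 6 passed the filter on low values, whereas APOA5 was not analysed here. The values of irradiated against control liver chose the set, so they are given as a description without a test, and tests are given for the comparisons among the doses.

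Apolipoproteins are the protein part of the particles that carry triglycerides and cholesterol in blood. APOA1 is the main protein of high-density lipoprotein, APOC3 slows the clearance of triglyceride-rich particles, APOA5 favours it, and APOA4 travels with the lipid-rich particles secreted by gut and liver. CREB3L3 encodes CREBH, a membrane protein of the endoplasmic reticulum in liver and gut that proteases of the Golgi cut to free a transcription factor, which in mice raises Apoa4 on fasting. BUD13 belongs to a complex that holds pre-mRNA in the nucleus and assists splicing, and ZPR1 is a zinc finger protein that binds the survival motor neuron protein.

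RNA of wild-type pig liver was sequenced in 2 control libraries of day 0 and in 3 libraries each at 20, 30 and 40 Gy of hepatic irradiation, all of day 35. Irradiation and elapsed time therefore cannot be told apart against control. The series is about veno-occlusive disease of the irradiated liver, and the comparison of doses asks how liver transcripts differ with the strength of irradiation. Whether a group's libraries are of different pigs is not in the labels. The p-values therefore refer to library-to-library spread, possibly only technical. The labels give hepatocyte as the cell type and liver as the tissue. All 9 measured hepatocyte markers were above 0 in every library, and so were all 8 measured macrophage and all 8 measured endothelial markers. In such bulk samples fewer cells of a type and less RNA per cell cannot be told apart. Levels are FPKM (fragments scaled to transcript length and to the mapped fragments of the library), which can be compared between genes because they are divided by length. The FPKM of all genes summed to between 520839 and 949840 per library, and the sequencing depth is unknown.

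Libraries were nearly identical within a cross-dose pair (20Gy-3 with 30Gy-3) and within a pair of 1 dose (30Gy-1 with 30Gy-2, called the 30 Gy pair). Over 6550 genes the log2 ratio within these pairs had an SD of 0.217 and 0.222, against 0.352 to 1.14 in the other 53 pairs of libraries. The 20 and 30 Gy libraries formed sets that cut across dose. 20Gy-1, 20Gy-3 and 30Gy-3 were close to each other (SD 0.217 to 0.393), as were 20Gy-2, 30Gy-1 and 30Gy-2 (0.222 to 0.414). Libraries of the same dose but of different sets were further apart (0.607 to 0.676). In means and SDs, 30Gy-1 and 30Gy-2 were averaged and counted as 1 sample, so n is 2 in control, 3 at 20 Gy, 2 at 30 Gy and 3 at 40 Gy. The SD of the log2 ratio was 0.976 for 40Gy-1 with 40Gy-2 and 1.01 for 40Gy-1 with 40Gy-3, against 0.352 for 40Gy-2 with 40Gy-3. 40Gy-1 was nearer to 20Gy-2 (0.760) than to the other libraries of 40 Gy. It thus differed from 40Gy-2 and 40Gy-3 over many genes, and splits of the 40 Gy group below are not particular to the genes named.

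The genes of the locus occupy 97.5 kb, from 44120830 to 44218360 on chromosome 9 of Sscrofa11.1 in the RefSeq annotation. BUD13 (44120830 to 44165410) and ZPR1 (44167422 to 44178137) are 2011 bases apart. ZPR1 and APOA5 (44177834 to 44180880) overlap by 304 bases. APOA4 (44201587 to 44204072) lies within a long noncoding gene, LOC106504887, over its whole length, APOC3 spans 44211171 to 44213538, and APOA1 spans 44216481 to 44218360. CREB3L3 lies on chromosome 2 (74578471 to 74588269). Strand was not stated for the libraries, so reads of ZPR1 and APOA5, and of APOA4 and the noncoding gene, may be mixed. The values of ZPR1 and APOA4 are uncertain to that extent. No ID was paired with APOA5, while ZPR1 ranked as high as 98 and 67 by FPKM in the control libraries. How much of the ZPR1 values comes from reads of APOA5 was not tested, and this holds for every value of ZPR1 below. The coordinates above give whole genes with their exons and introns. In the table the genes carry the IDs ENSSSCG00000015065 (BUD13), ENSSSCG00000015067 (ZPR1), ENSSSCG00000040689 (APOA4), ENSSSCG00000015069 (APOC3), ENSSSCG00000030921 (APOA1) and ENSSSCG00000013501 (CREB3L3).

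APOA4 was far lower in every irradiated library than in control. It had 2523 and 4266 FPKM in the control libraries. At 20 Gy its libraries held 14.4, 8.54 and 18.5 FPKM, at 30 Gy 9.38, 9.71 and 17.4 FPKM, and at 40 Gy 35.2, 34.3 and 46.2 FPKM. The 3 dose groups together were thus 171-fold lower than control on the FPKM + 1 scale, a log2 difference of -7.42. Among all genes of a library, APOA4 ranked between 1289 and 4873 by FPKM in irradiated liver, against 45 and 23 in the control libraries. Among the irradiated libraries 20Gy-2, 30Gy-1 and 30Gy-2 were lowest and the 3 of 40 Gy were highest. Libraries of 20 and 30 Gy were thus interleaved, with 20Gy-1, 20Gy-3 and 30Gy-3 above the other 3.

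**Figure D1:**
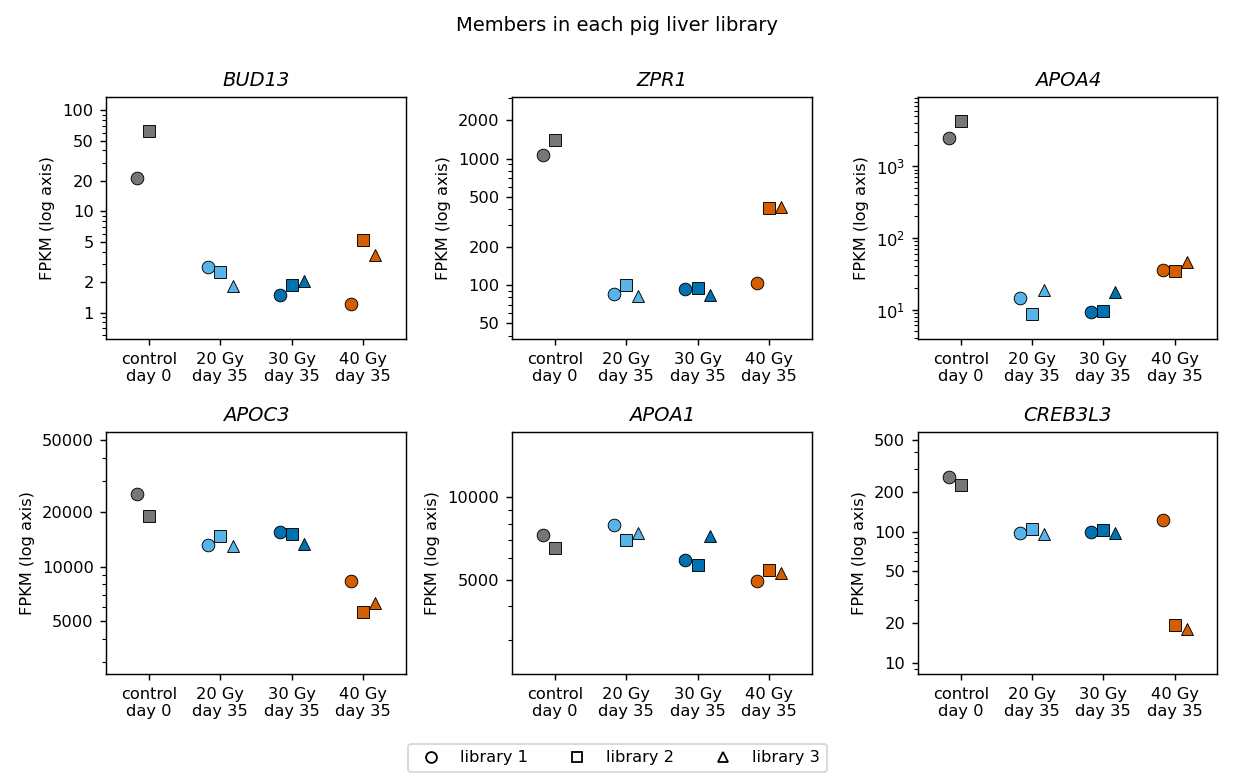
FPKM of the 6 measured genes in each library (vertical log axis), by group; each point is 1 library and its shape gives the library number within the group. APOA4 lies between 8.54 and 46.2 FPKM in irradiated libraries and at 2523 and 4266 FPKM in control, while CREB3L3 at 40 Gy is at 122 FPKM in library 1 and at 19.4 and 18.0 FPKM in the other two.

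APOC3 was among the most abundant transcripts of every library and was lowest at 40 Gy. Its level was 25265 and 19071 FPKM in control, 13144, 14791 and 13075 FPKM at 20 Gy, 15567, 15262 and 13345 FPKM at 30 Gy, and 8380.3, 5602 and 6329 FPKM at 40 Gy. Every irradiated library was below both controls. Against control, the log2 difference was -0.69 at 20 Gy, -0.58 at 30 Gy and -1.72 at 40 Gy. APOC3 ranked 5 in both control libraries, 6 to 9 at 20 and 30 Gy, 8 in 40Gy-1, and 24 and 25 in 40Gy-2 and 40Gy-3. It took 0.662% to 1.61% of the summed FPKM of a 40 Gy library, against 1.87% to 2.21% at 20 and 30 Gy.

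APOA1, the last gene of the cluster, differed least. Its mean was 6906 ± 569 FPKM in control (SD, n = 2), 7427 ± 451 FPKM at 20 Gy (n = 3), 6489 ± 1021 FPKM at 30 Gy (n = 2) and 5218 ± 245 FPKM at 40 Gy (n = 3). The control and irradiated libraries overlapped, with a log2 difference of -0.15 for the 3 doses together. APOA4 and APOA1 lie in the same cluster, and APOA4 had 0.00122 to 0.00873 times the FPKM of APOA1 in irradiated libraries, against 0.345 and 0.656 times in control.

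BUD13, at the other end of the locus, was lower in all 9 irradiated libraries. It had 21.2 and 61.8 FPKM in control. At 20 Gy it had 2.80, 2.52 and 1.83 FPKM, at 30 Gy 1.49, 1.86 and 2.05 FPKM, and at 40 Gy 1.21, 5.22 and 3.70 FPKM. No irradiated library reached the lower control, and the log2 difference of the 3 doses together from control was -3.48. That value was -4.23 without control-1 and -2.73 without control-2, because the controls themselves differed, and -2.49 with a pseudocount of 5, which weighs on a gene of such low level.

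ZPR1 was lower than control in all irradiated libraries too, and its level split the 40 Gy group. The control libraries had 1059.9 and 1399.8 FPKM. ZPR1 lay between 82.7 and 100.1 FPKM in the 6 libraries of 20 and 30 Gy, a narrow range with a median of 89.6 FPKM. At 40 Gy it was 104, 406 and 416 FPKM in 40Gy-1, 40Gy-2 and 40Gy-3. The first of these was close to the 20 and 30 Gy libraries, and the other two were between them and control. The log2 difference from control was -3.76 at 20 Gy, -3.74 at 30 Gy and -2.22 at 40 Gy, where it was -1.57 without 40Gy-1.

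CREB3L3 was lower in irradiated liver, and it split the 40 Gy libraries in the opposite direction. It had 260 and 228 FPKM in control and kept to 96.5 to 105 FPKM in all 6 libraries of 20 and 30 Gy. At 40 Gy it had 122 FPKM in 40Gy-1, and 19.4 and 18.0 FPKM in 40Gy-2 and 40Gy-3. The last 2 were the lowest of all 11, and 40Gy-1 was the highest of the irradiated ones. The log2 difference from control was -1.28 at 20 Gy, -1.28 at 30 Gy and -2.75 at 40 Gy, and -3.63 at 40 Gy without 40Gy-1.

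In irradiated against control liver, 5 of the 6 measured genes had no overlap between the libraries of the 2 sides, APOA1 being the exception. Such separation was seen in 13.3% of all genes tested. An adjusted p under 0.05 was reached by 4 of the 6 (APOA4, BUD13, ZPR1 and APOC3), where 4.71% of 11644 genes reached it. This contrast chose the genes, so neither count is evidence about them. Lower calls made up 2.84% and higher calls 1.86% of all genes. The 4 calls among the 6 genes became 2 without control-2, and 2 with the 30 Gy pair averaged and the cross-dose pair dropped.

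**Figure D2:**
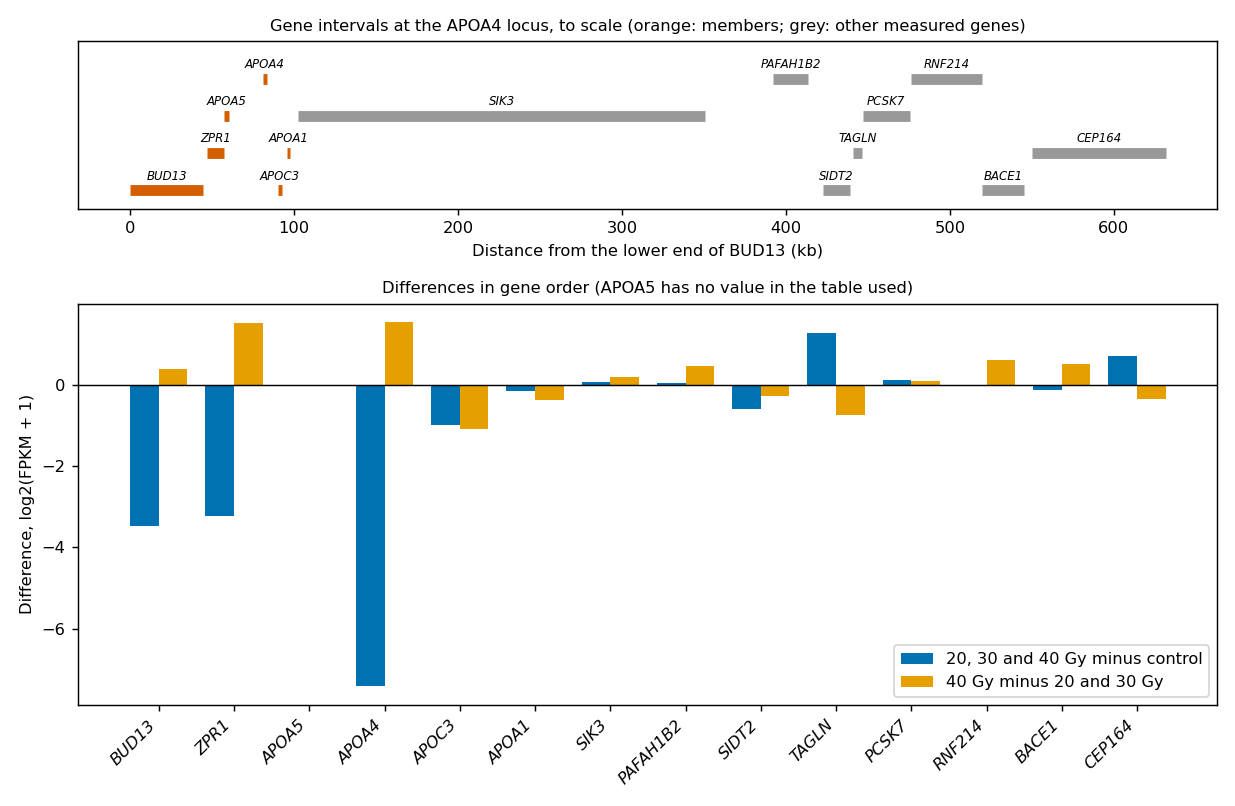
Upper panel: intervals of the genes of the locus and of the other measured genes within 1 Mb, drawn to scale against the distance from the lower end of BUD13 in kb. Lower panel: difference on the log2(FPKM + 1) scale for the same genes in map order, as the 3 doses minus control and as 40 Gy minus the mean of 20 and 30 Gy; BUD13, ZPR1 and APOA4 reach -3.48, -3.24 and -7.42 against control, while SIK3, next to APOA1, is at 0.07.

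The genes around the locus were described in the same way. Of 17 other annotated genes, pseudogenes and noncoding genes within 1 Mb of the locus, 8 were measured, all of them on the side of APOA1. In irradiated against control liver 1 of the 8 rose (CEP164, a centriole protein, log2 difference 0.70, adjusted p = 0.0353 by limma), none fell (3 of the 8 had an unadjusted p under 0.05), and their median difference was 0.06, against 0.01 over all genes tested. With 1.86% of all genes called higher and 2.84% lower, so few genes show nothing particular to the neighbourhood. SIDT2, a lysosomal membrane protein, had 7.43 to 15.7 FPKM in the irradiated libraries, all below the 18.2 and 18.8 FPKM of control, with a difference that did not pass (-0.60, SE 0.201, adjusted p = 0.126). SIK3, a kinase gene whose interval lies next to that of APOA1, had 7.54 to 18.9 FPKM in the irradiated libraries. Its level in control was 9.76 and 12.4 FPKM, and the difference was 0.07 (SE 0.259, adjusted p = 0.907 by limma). At 40 Gy against 20 and 30 Gy, 2 of the 8 rose and none fell, where 11.8% and 9.71% of all genes did. With so few genes, this too shows nothing particular to the neighbourhood. The 2 were RNF214, a ring finger protein, and PAFAH1B2, a subunit of an enzyme that degrades platelet-activating factor. RNF214 had 4.79, 5.52 and 5.74 FPKM at 40 Gy, against 2.50 to 3.44 FPKM at 20 and 30 Gy (0.62, SE 0.131, adjusted p = 0.0101). The call of RNF214 was lost without 40Gy-2 (adjusted p = 0.0528, range over alternatives 0.00395 to 0.128). That of PAFAH1B2 (0.46, SE 0.134, adjusted p = 0.0348) was lost in 13 of 22 alternatives, with an adjusted p of 0.158 and 0.0971 without 40Gy-2 and 40Gy-3 (range 0.011 to 0.26).

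The comparison of 40 Gy with 20 and 30 Gy, all of day 35, was not used to choose the genes. APOA4 and ZPR1 rose and APOC3 fell, so 3 of the 6 measured genes changed, where 21.5% of 11644 genes did. Over the 22 alternatives this number was 1 to 4; it was 4 without 40Gy-1, 2 without 40Gy-2 or without 40Gy-3, and 1 with the 30 Gy pair averaged and the cross-dose pair dropped. Higher calls made up 11.8% and lower calls 9.71% of all genes. BUD13, APOA1 and CREB3L3 did not pass the threshold, an adjusted p under 0.05. The 40 Gy libraries did not overlap the 20 and 30 Gy libraries in 4 of the 6 genes (APOA4, ZPR1, APOC3 and APOA1), against 23.8% of all genes (13% higher and 10.8% lower).

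At 40 Gy APOA4 had 34.3 to 46.2 FPKM, all above the 6 libraries of 20 and 30 Gy, which spanned 8.54 to 18.5 FPKM. It was 2.92-fold higher on the FPKM + 1 scale (log2 difference 1.55, SE 0.284, adjusted p = 0.00553). This call was kept in all 22 alternatives, with adjusted p between 0.0036 and 0.0416. Its log2 difference from control at 40 Gy was still -6.39.

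APOC3 at 40 Gy was at 5602 to 8380.3 FPKM, below all 6 libraries of 20 and 30 Gy at 13075 to 15567 FPKM. The log2 difference was -1.09 (SE 0.206, adjusted p = 0.00633). It lost its call with the 30 Gy pair averaged and the cross-dose pair dropped (adjusted p = 0.159, range 3.66e-04 to 0.159). APOA4 and APOC3, 7098 bases apart, thus moved in opposite directions between 40 Gy and the lower doses.

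ZPR1 rose at 40 Gy, with a log2 difference of 1.53 (SE 0.387, adjusted p = 0.0215), but 40Gy-2 and 40Gy-3 carried this difference. Without 40Gy-1 it was 2.18 (adjusted p = 2.31e-05). The call was lost without 40Gy-2 (adjusted p = 0.114), without 40Gy-3 (0.098), with the cross-dose pair dropped (0.0803) and with the 30 Gy pair averaged as well (0.206), in a range of 2.31e-05 to 0.206.

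CREB3L3 had a log2 difference of -1.47 at 40 Gy (SE 0.495, 95% interval -2.57 to -0.37), with an adjusted p of 0.0579 that missed the threshold. Without 40Gy-1 the difference was -2.35 and the adjusted p 4.77e-06. With libraries scaled to a common median the call was also made (adjusted p = 0.0445), in a range of 4.77e-06 to 0.284. In 40Gy-2 and 40Gy-3, CREB3L3 was therefore lowest while ZPR1 was the highest of the irradiated libraries. APOA4 was similar in all 3 libraries of 40 Gy.

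BUD13 differed by 0.39 (SE 0.361, 95% interval -0.41 to 1.19, adjusted p = 0.458), and by 0.82 without 40Gy-1 (adjusted p = 0.0743), 0.07 without 40Gy-2 (0.928) and 0.28 without 40Gy-3 (0.707), in a range of 0.0743 to 0.928. APOA1 differed by -0.38 (SE 0.175, 95% interval -0.77 to 0.01, adjusted p = 0.143).

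**Figure D3:**
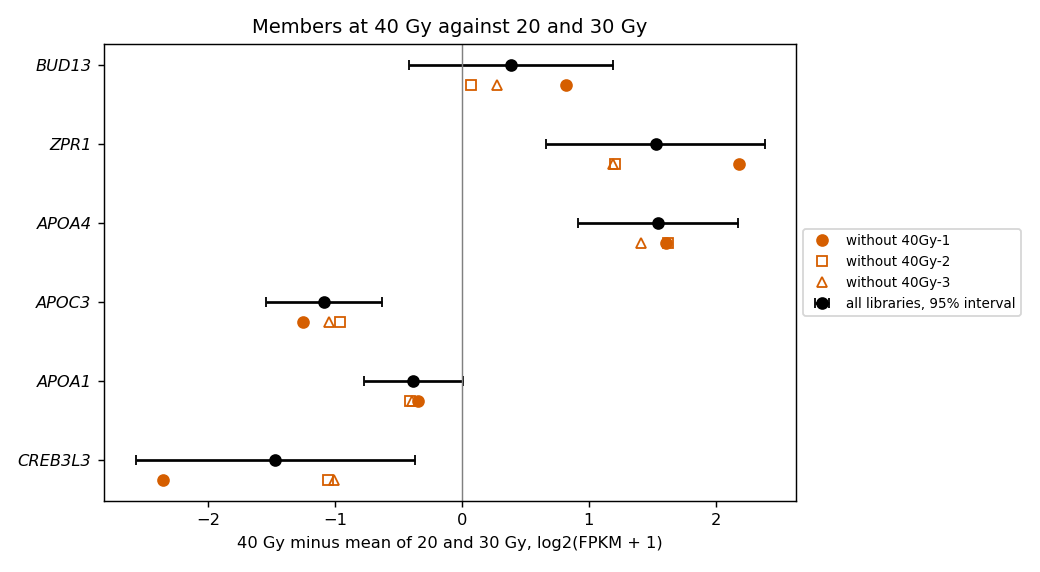
Difference of 40 Gy from the mean of 20 and 30 Gy for each gene on the log2(FPKM + 1) scale, with all libraries (black, bars are 95% intervals of the limma fit) and with 1 library of 40 Gy left out (orange). APOA4 stays between 1.41 and 1.62 whichever library is left out, whereas CREB3L3 goes to -2.35 and ZPR1 to 2.18 without 40Gy-1.

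Between 30 and 20 Gy none of the 6 genes changed, and the differences ran from -0.27 (BUD13) to 0.11 (APOC3) on the log2 scale, with an adjusted p of 1 for each. No gene of 11644 was called in this comparison by limma (0% of all), and 280 had an unadjusted p under 0.05. Both doses held libraries of each of the sets that cut across dose. The difference between those sets enters the spread of this test, so the lack of calls says little about dose. The 95% interval was -0.89 to 0.57 for APOA4, -0.98 to 1.01 for ZPR1 and -1.27 to 1.27 for CREB3L3, and differences within these bounds remain possible. In the order of mean levels 20 and 30 Gy were neighbours for 5 of the 6 genes, and for APOA1 the control mean lay between them.

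Ratios within a library do not depend on its scaling. The ratio of APOA4 to APOA1 was 0.00633 to 0.00873 at 40 Gy, against 0.00122 to 0.0025 at 20 and 30 Gy, with no overlap. The ratio of APOC3 to APOA1 was 1.70 in 40Gy-1, 1.03 in 40Gy-2 and 1.20 in 40Gy-3, against 1.66 to 2.70 at 20 and 30 Gy and 3.46 and 2.93 in the control libraries. ZPR1 had 86.3, 77.8 and 112 times the FPKM of BUD13 in the 40 Gy libraries, against 30.6 to 62.7 times at 20 and 30 Gy, and 50.0 and 22.7 times in control. The ratio overlapped between control and the 20 and 30 Gy libraries and was highest in each library of 40 Gy, 40Gy-1 included.

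**Figure D4:**
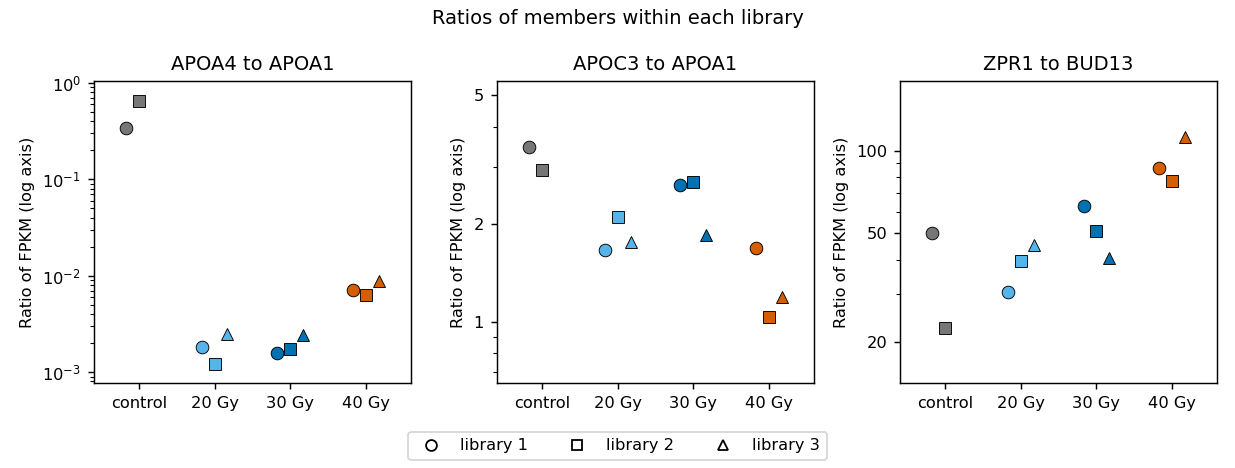
Ratio of FPKM of gene pairs within each library (vertical log axis), by group; each point is 1 library. The ratio of APOA4 to APOA1 is at most 0.00873 in irradiated libraries, against 0.345 and 0.656 in control, and the ratio of ZPR1 to BUD13 is highest in the 3 libraries of 40 Gy.

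Among other genes of lipoprotein assembly, remodelling and uptake, more fell than rose at 40 Gy against 20 and 30 Gy. Of 34 genes listed, 28 were measured and 27 tested. Of these, 12 fell, 2 rose (APOD and ABCG1) and 13 did not pass, where 9.71% of all genes fell and 11.8% rose. Their median log2 difference was -0.44, against 0.07 over all genes. ANGPTL8, a secreted inhibitor of lipoprotein lipase made on feeding, had 21.4, 0.195 and 0.409 FPKM in 40Gy-1, 40Gy-2 and 40Gy-3, against 43.7 to 138 FPKM at 20 and 30 Gy (-4.63, SE 0.873, adjusted p = 0.00615). Without 40Gy-1 the difference was -6.00, and the call was lost with the 30 Gy pair averaged and the cross-dose pair dropped (adjusted p = 0.0912, range 7.8e-05 to 0.0912). The hepatic lipase LIPC had 56.5, 31.3 and 30.2 FPKM at 40 Gy, against 152 to 177 FPKM (-2.08, SE 0.211, adjusted p = 2.58e-04), and this call was kept in all 22 alternatives. PDZK1, a scaffold of the receptor for high-density lipoprotein, fell by 2.03 on the log2 scale and by 2.72 without 40Gy-1, with a call that was lost without 40Gy-2 (adjusted p = 0.0606) and 40Gy-3 (0.0523; range 5.74e-05 to 0.137). APOA2, the second protein of high-density lipoprotein, fell by 1.71, with a call that was lost in 7 of 22 alternatives, among them without 40Gy-2 (adjusted p = 0.16, range 0.0241 to 0.19). LIPG, an endothelial lipase, fell by 1.90, with a call lost in 12 of 22 alternatives, among them without 40Gy-2 (adjusted p = 0.122, range 0.0118 to 0.229).

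The count of 14 changed genes was 8 without 20Gy-3, without 30Gy-1 or without 30Gy-2, 4 without 40Gy-2 and 5 without 40Gy-3. It was 8 with the 30 Gy pair averaged, 7 with the cross-dose pair dropped, and 2 with both. APOB, the structural protein of very low-density lipoprotein, and MTTP, which loads it with lipid, were at -0.05 (SE 0.195, adjusted p = 0.88) and 0.11 (SE 0.183, adjusted p = 0.703). APOE was at -0.57 (SE 0.233, adjusted p = 0.104). Against control, 2 of the 27 fell and 1 rose over the 3 doses, where 2.84% and 1.86% of all genes did. LCAT, which esterifies cholesterol in plasma, had 67.3 to 133 FPKM in irradiated liver, against 269 and 278 FPKM in control (-1.30, SE 0.201, adjusted p = 0.00625). APOF fell by 1.04, and ABCA1, which exports cholesterol to APOA1, rose by 1.30. Only 1 of these 3 calls was left without control-1 and 1 without control-2, none with the 30 Gy pair averaged and the cross-dose pair dropped, and 6 genes were called without 40Gy-1.

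**Figure D5:**
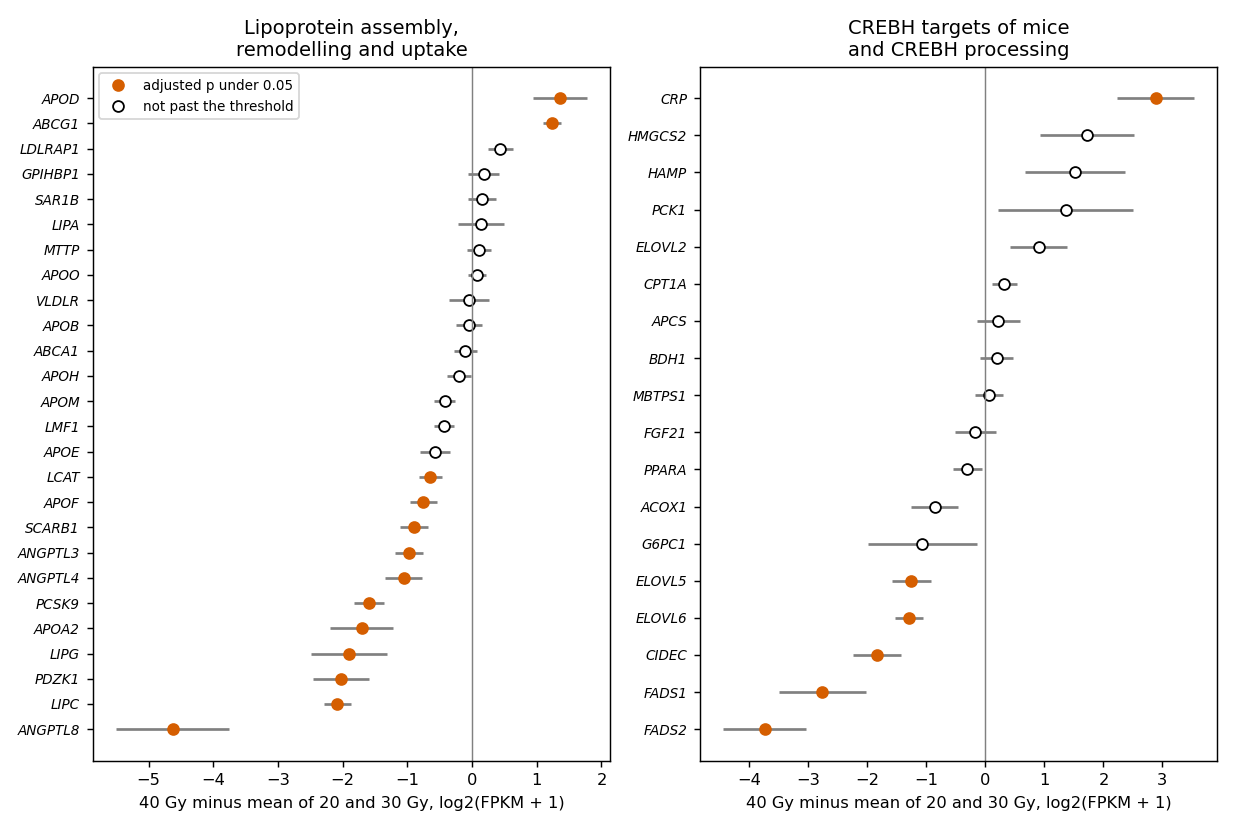
Difference of 40 Gy from the mean of 20 and 30 Gy on the log2(FPKM + 1) scale for 26 of the 27 tested genes of lipoprotein assembly, remodelling and uptake (left) and 18 genes reported as CREBH targets in mice or acting in CREBH processing (right); points are limma estimates, bars are SE, and orange marks an adjusted p under 0.05. On the left 11 of the genes drawn are lower and 2 higher, and on the right 5 are lower and 1 is higher.

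Genes reported as targets of CREBH in mice moved in both directions at 40 Gy. Of 20 listed genes, which include genes of CREBH processing beside the targets, 18 were measured. Against 20 and 30 Gy, 5 fell, 1 rose and 12 did not pass, where 9.71% of all genes fell and 11.8% rose. The median log2 difference was -0.06, against 0.07 over all genes. The desaturase FADS2 had 38.7, 1.95 and 2.38 FPKM in 40Gy-1, 40Gy-2 and 40Gy-3, against 90.4 to 101 FPKM at 20 and 30 Gy (-3.74, SE 0.704, adjusted p = 0.00614). Its difference was -4.96 without 40Gy-1, and its call was lost with the 30 Gy pair averaged and the cross-dose pair dropped (adjusted p = 0.111, range 6.85e-06 to 0.111). Within 40 Gy, FADS2 was higher in 40Gy-1 than in 40Gy-2 and 40Gy-3, as CREB3L3 was. In 40Gy-1 FADS2 was nevertheless below every library of 20 and 30 Gy, whereas CREB3L3, at 122 FPKM, was above their 96.5 to 105 FPKM. The lipid droplet protein CIDEC had 4.11, 0.259 and 0.199 FPKM at 40 Gy, against 4.68 to 8.45 FPKM (-1.83, SE 0.404, adjusted p = 0.0121). CRP, the acute-phase C-reactive protein, had 510 FPKM in 40Gy-1, 1925 in 40Gy-2 and 2666 in 40Gy-3, against 86.9 to 392 FPKM (2.88, SE 0.649, adjusted p = 0.0133). Without 40Gy-1 the differences of CIDEC and CRP were -2.52 and 3.6. The calls of both were lost without 40Gy-2 (adjusted p = 0.0723 and 0.0721) and without 40Gy-3 (0.0591 and 0.065), in ranges of 2.18e-05 to 0.128 and 0.00202 to 0.151. FADS1, ELOVL5 and ELOVL6, which also build polyunsaturated or longer fatty acids, were the other falls. FADS1 had 35.8, 1.61 and 1.35 FPKM in 40Gy-1, 40Gy-2 and 40Gy-3, against 34.6 to 48.0 FPKM at 20 and 30 Gy. In the same order ELOVL5 had 52.76, 17.6 and 16.9 FPKM, against 52.82 to 73.6 FPKM, and ELOVL6 had 9.45, 10.0 and 10.2 FPKM, against 18.5 to 34.8 FPKM. The calls of FADS1, ELOVL5 and ELOVL6 were lost in 5, 4 and 1 of 22 alternatives. PCK1 and G6PC1 of glucose production (1.36, SE 1.14, adjusted p = 0.412, and -1.07, SE 0.924, adjusted p = 0.424) did not pass. PCK1 had 96.4, 94.5 and 1614 FPKM at 30 Gy, against 1639, 102 and 1599 FPKM at 20 Gy, with the same 3 libraries high as for APOA4 at these doses. Neither FGF21, a hormone of fasting, nor the protease MBTPS1 that cuts CREBH passed the threshold.

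The 6 changes of that list were 2 without 40Gy-2 or without 40Gy-3, 3 with the cross-dose pair dropped, and 0 with the 30 Gy pair averaged as well. Against control, the median of the list was -0.84, against 0.01 over all genes. Of the 18, 4 fell over the 3 doses (CIDEC, CPT1A, ELOVL2 and ELOVL6) and none rose, where 2.84% and 1.86% of all genes did. That count was 0 without control-2, 10 without 40Gy-1, 2 with the replicate number as a block, 2 with the cross-dose pair dropped and 1 with the 30 Gy pair averaged as well.

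Of 29 listed transcription regulators of apolipoprotein genes, all measured, 1 rose and 1 fell at 40 Gy against 20 and 30 Gy, where 11.8% and 9.71% of all genes did. Their median log2 difference was 0.06, against 0.07 over all genes. NR0B2, a nuclear receptor that represses other receptors, rose to 52.2, 117 and 129 FPKM at 40 Gy, against 15.5 to 28.9 FPKM at 20 and 30 Gy and 74.0 and 117 FPKM in control. Its log2 difference was 2.18 (SE 0.313, adjusted p = 0.00175), and its call was lost in 1 of 22 alternatives, the combined setting for the near-identical pairs (adjusted p = 0.0587, range 1.19e-04 to 0.0587). RORA, a receptor linked to the circadian clock, fell by 0.82, with a call lost without 20Gy-1 (adjusted p = 0.0565) and without 20Gy-3 (0.0544; range 0.0202 to 0.234). HNF4A, a nuclear receptor that drives many hepatocyte genes, was at 0.47 (SE 0.283, adjusted p = 0.247), with 73.4, 155 and 144 FPKM at 40 Gy and 65.3 to 108 FPKM at 20 and 30 Gy. Against control, RORA and SREBF1, a driver of fatty acid synthesis, rose in the mean of the 3 doses, and NR1D1 and NR0B2 fell, where 4.71% of all genes changed. For NR0B2 this fall was that of 20 and 30 Gy, as its mean was 99.5 FPKM at 40 Gy and 95.7 FPKM in control. The call of NR0B2 against control was lost in 13 of 21 alternatives. The calls of RORA, SREBF1 and NR0B2 were lost without control-1 (adjusted p = 0.0568, 0.139 and 0.126) and without control-2 (0.117, 0.169 and 0.334), and that of NR1D1 without control-2 (0.0956).

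Of 12 listed partners of BUD13 and ZPR1, 9 were measured, and in irradiated against control liver none was called by limma and none had an unadjusted p under 0.05 (median log2 difference -0.07, against 0.01 over all genes). With 4.71% of all genes called, a count of 0 among 9 shows nothing particular to them. RBMX2, which belongs to the same complex as BUD13, was at -0.27 (SE 0.338, adjusted p = 0.707). At 40 Gy against 20 and 30 Gy, 3 of the 9 rose, where 11.8% of all genes did. These were the splicing factors CDC40, CRNKL1 and CWC22, with differences of 0.37 to 0.62 and levels of at most 6.53 FPKM. The call of CRNKL1 was lost in 13 of 22 alternatives, among them without 40Gy-2 (adjusted p = 0.118, range 0.0379 to 0.286).

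The genes most like each member over the 11 libraries were ranked by Pearson correlation of log2(FPKM + 1), a description in which the gap between control and irradiated libraries weighs heavily. For APOA4 they were CNPY3 (r = 0.98) and PMM1 (r = 0.96), and for BUD13 CNPY3 (r = 0.98) and CRAT (r = 0.98). For ZPR1 they were MPST (r = 0.98) and EIF3G (r = 0.97), and MPST was also among the 5 nearest to BUD13 (r = 0.96). For APOC3 they were ACAA1 and ILRUN (r = 0.97 each), and for APOA1 CNNM2 (r = 0.96) and MYO7A (r = 0.93). For CREB3L3 they were GARNL3 (r = 0.99) and NBL1 (r = 0.98), followed by CIDEC (r = 0.97).

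Markers of cell types were followed along the same comparison of 40 Gy with 20 and 30 Gy, in which 11.8% of all genes rose and 9.71% fell. The markers of each type are few, so a count near these shares shows nothing particular to that type. Of the 9 measured hepatocyte markers 4 fell (ALB, TTR, TF and ASGR1) and 5 were not called. Of those 5, FGB (0.996), TAT (1.04), CPS1 (0.49) and HPX (0.09) had positive log2 differences and SERPINA1 (-0.62) a negative one. The summed FPKM of all 9 was 27706 to 33471 at 40 Gy, against 43740.3 to 61369 at 20 and 30 Gy and 43055 to 72270 in control. Abundant genes weigh most in this sum, such as ALB, whose highest group mean was 34787 FPKM. All 3 measured neutrophil markers rose, with sums of 7.71 to 17.9 FPKM at 40 Gy, against 0.341 to 1.01 FPKM, and 2 of the 3 were at 0 in some library. Macrophage markers rose in 2 of 8. Their sum was 805 FPKM in 40Gy-1, 363 in 40Gy-2 and 361 in 40Gy-3, against 221 to 484 FPKM at 20 and 30 Gy. Only 40Gy-1 was thus above the lower doses, and control had 416 to 576 FPKM. B and plasma cell markers rose in 2 of the 3 tested (71.2 to 109.9 FPKM, against 40.2 to 45.5 FPKM). T and NK cell markers fell in 3 of 5 (CD3E, CD8A and KLRK1), and CD2 (-0.77) and NKG7 (0.38) were not called. The sum of the 5 was 31.9 FPKM in 40Gy-1, above every library of 20 and 30 Gy. It was 9.45 and 7.65 FPKM in 40Gy-2 and 40Gy-3, against 15.1 to 20.3 FPKM. NKG7 had the highest group mean of the 5 (up to 11.7 FPKM), so the sum and the called falls rest on different genes. Erythroid markers fell in 1 of 3 (11.7 to 54.4 FPKM, against 58.1 to 337 FPKM). Stellate cell and fibroblast markers summed to 367 FPKM in 40Gy-1, 43.6 in 40Gy-2 and 36.9 in 40Gy-3, against 120 to 173 FPKM at 20 and 30 Gy, with none of 8 called by limma and 1 at an unadjusted p under 0.05. Endothelial markers summed to 92.5, 219 and 191 FPKM in the same 3 libraries, against 94.3 to 135 FPKM, with none of 8 called and 3 at an unadjusted p under 0.05. None of the 3 tested bile duct markers was called, with 1 at an unadjusted p under 0.05. Of 8 enterocyte markers only VIL1 was measured, at 13.0, 1.76 and 0.983 FPKM at 40 Gy, against 1.61 to 3.19 FPKM, and it was not called. The part of these differences in the values of the locus and of CREB3L3 was not tested.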

How the data were processed

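Trizol-extracted RNA was made into TruSeq RNA libraries, per the labels' protocols. The authors deposited 1 table of FPKM, per the file headers, with 12505 genes and 11 columns, each named after 1 library. Per the submitters' processing notes, HISAT2, Cufflinks and HTSeq and the builds Sscrofa11.1 and mm10 were involved, in roles not given. The annotation and any gene filter were likewise not given in the sources used here. Scaling to FPKM divides by each library's total, so a few abundant genes can lower all others, and without counts the depth, counting intervals and detection limits are unknown. The gene IDs were paired with symbols for 10561 genes, and coordinates came from the RefSeq table of Sscrofa11.1, matched by symbol. Promoter and protein sequences were not analysed here, and some listed genes are not reported here.

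Values were analysed as log2(FPKM + 1), which understates changes of low genes. The 11644 genes that reached 1 FPKM in 2 or more libraries were fitted with 4 group means over all 11 libraries in limma 3.58.1 (R 4.3.3; eBayes with trend; 7 residual degrees of freedom before moderation), two-sided, with Benjamini-Hochberg adjustment over all genes tested and a threshold of 0.05. The fit treats 30Gy-1 and 30Gy-2 as separate, unlike the means and SDs. The procedure was tested on simulated data. Alternatives changed the pseudocount, filter, scaling, variance model, replicate block and libraries. Named genes were the members, all flanking genes, and from each list the called genes with at least 5 FPKM in the higher group, at most 6 per list and comparison by size of change; other list genes are named as examples chosen after their values were seen. The members and the lists were chosen with earlier results of these data known.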

Additional observations from a re-analysis of the deposited data

How the results depend on the processing

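Genes called at 40 Gy against 20 and 30 Gy numbered 2508, and 846 to 4611 with single libraries left out, where the lowest count was that without 40Gy-2 and the highest that without 40Gy-1. They numbered 1177 with the cross-dose pair (20Gy-3, 30Gy-3) dropped and 202 with the 30 Gy pair averaged as well. Genes called in irradiated against control liver numbered 548, and 80 to 1416 with single libraries left out, 337 with the 30 Gy pair averaged, 290 with the cross-dose pair dropped and 42 with both. Genes called between 30 and 20 Gy numbered 0, and 0 to 3 with single libraries left out, 2 with the cross-dose pair dropped and 1 with the 30 Gy pair averaged as well. Fewer libraries enter these fits; beyond that, the cause was not tested. Scaling to a common median gave 956 higher and 1386 lower calls at 40 Gy against 20 and 30 Gy, where the values as deposited gave 1377 higher and 1131 lower. No value past the threshold changed sign under any alternative run.

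The replicate numbers did not pair the libraries: deviations from the group means correlated between -0.62 and 0.65 over 15 same-numbered pairs, and 5 of 11 libraries correlated best with one of their own number. With the number as a block, 2554, 0 and 440 genes were called at 40 Gy against 20 and 30 Gy, at 30 against 20 Gy and in irradiated against control liver. Unknown depth limits what can be said of BUD13 and other genes of a few FPKM.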
